A study of Mus musculus with 9 samples.

Results

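Lysosomes are the acidic compartments in which cells break down what they have taken up and their own worn parts, and macrophages, the tissue phagocytes of the immune system, are rich in them. Soluble hydrolases such as cathepsins and glycosidases do the degradation, membrane glycoproteins line and shield the limiting membrane, and the V-ATPase, a rotary proton pump, acidifies the lumen. The pump has a membrane sector, V0, which carries protons, and a cytosolic sector, V1, which hydrolyses ATP, and several of its subunits can each be supplied by alternative genes. Tfeb, a transcription factor of the MiT/TFE family, is known to drive many of these genes together through a promoter element called CLEAR.

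The genes described here are 27 named lysosomal genes and every gene whose symbol begins with Atp6v or Atp6ap, the V-ATPase subunits and their accessory proteins. The rule matched 52 of the 29763 named genes, and 45 of them reached at least 1 TPM (a transcript's share of all transcripts in its library, corrected for transcript length) in at least 3 libraries, of 11133 such genes in all. The 45 comprise 7 proteases, 7 glycosidases, 5 genes for lipid handling, saposins and progranulin, 7 membrane proteins, Tfeb, 7 V0 genes, 9 V1 genes and 2 accessory genes. All 7 genes left out belong to the V-ATPase families, namely Atp6v0a4, Atp6v0e2, Atp6v1b1, Atp6v1c2, Atp6v1e2, Atp6v1g3 and Atp6ap1l, and none of them exceeded 0.681 TPM in any library.

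Polyadenylated RNA came from mouse bone marrow-derived macrophages, which were grown for 7 days in medium holding 30% L929 supernatant, which supplies the growth factor M-CSF, and then received interferon-gamma at 40 ng/ml for 12 h. The 3 genotypes were wild type (WT), Ndufa4KO, which lacks Ndufa4, and Ndufa4l3miR147KO, which lacks both products of the Nmes1 locus, the small protein Ndufa4l3 and the microRNA miR147, with 3 libraries each. Every library was treated, so no untreated level exists, and strain, age and sex do not appear in the labels. The labels call the 3 libraries of a genotype technical replicates, so the p-values below measure only the spread between libraries. Whether they come from separate mice or cultures is unknown. A difference between genotypes therefore cannot be told apart from one between mice or cultures.

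AA467197, the table's symbol for the Ndufa4l3-miR147 gene, stood at 2.90, 2.21 and 4.50 TPM in the Ndufa4l3miR147KO, against 355 to 365 TPM in WT and 472 to 527 TPM in the Ndufa4KO. Ndufa4 was listed at 0 to 0.621 TPM in every library including WT, so its values check nothing. Read depth cannot be recovered from TPM and is unknown. Between 10809 and 10959 genes reached 1 TPM per library. Of 9 macrophage markers, 8 were present and Tyrobp was listed at 0 throughout. The summed marker level was 6920 to 7064 TPM in WT, 6371 to 6589 in the Ndufa4l3miR147KO and 7521 to 8024 in the Ndufa4KO, with Lyz2 at 4509 to 4660 TPM in WT and 5223 to 5675 in the Ndufa4KO. Other markers of that list lay lower in the Ndufa4KO than in WT without overlap: Cd14 at 81.9 to 88.1 against 149 to 160 TPM, Mrc1 at 23.4 to 32.1 against 35.9 to 41.0 TPM, and Mertk, whose highest Ndufa4KO library had 18.6 TPM. T-cell, B-cell, NK-cell and mast-cell markers summed to at most 1.32 TPM. The dendritic-cell list summed to 27.5 to 29.6 TPM in WT and 41.3 to 76.6 TPM in the Ndufa4KO, nearly all of it Clec9a. The osteoclast list summed to 12.4 to 14.4 TPM in WT, 13.8 to 17.2 in the Ndufa4l3miR147KO and 14.9 to 17.9 in the Ndufa4KO, most of it Ocstamp, with Calcr and Oscar at or near 0. Neutrophil (1.30 to 67.0 TPM), fibroblast (6.16 to 130 TPM) and erythroid (10.1 to 148 TPM) lists varied between libraries of 1 genotype. The part of these markers in the differences below was not tested, and in bulk RNA fewer cells of a type and less RNA per cell cannot be told apart.

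Ndufa4KO replicate 3 stood apart from the other libraries in a trend with transcript length. Across 10673 genes the Spearman correlation of its deviation from the genotype mean with annotated transcript length was -0.472, against 0.335 and 0.344 in the other Ndufa4KO libraries and -0.0925 to 0.124 in the other genotypes.

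Several of the 45 genes were among the most abundant in WT macrophages. The median of the 45 genes was 388 TPM in WT against 19.1 TPM over all genes kept, and 9 of the 45 lay among the top 100 genes. Ctsd, the aspartic protease cathepsin D, led with 5778 ± 52.2 TPM (SD, n = 3), rank 7 of all genes. Psap, the precursor of the saposins that help glycosidases reach their lipid substrates, followed with 4925 ± 19.2 TPM. Ctsb, the cysteine protease cathepsin B, had 3990 ± 30.1 TPM, and Grn, progranulin, 2621 ± 39.5 TPM. The V0 proteolipid Atp6v0c, which forms most of the rotating ring of the pump, had 2390 ± 37.8 TPM, and Atp6v0e, a small V0 subunit, 652 ± 21.9 TPM. Cd68 and Cd63, membrane glycoproteins of late endosomes and lysosomes, had 2340 ± 19.7 and 2205 ± 12.3 TPM.

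Among the glycosidases the highest were Hexa, the alpha subunit of beta-hexosaminidase, with 785 ± 12.2 TPM, and Gusb, beta-glucuronidase, with 557 ± 2.60 TPM. The leading V1 genes were Atp6v1f with 435 ± 7.57 TPM and Atp6v1g1 with 390 ± 9.12 TPM, which lie close together. The accessory subunits Atp6ap1 and Atp6ap2 had 565 ± 21.2 and 236 ± 3.53 TPM. Gla, alpha-galactosidase A, was the lowest of the hydrolases at 5.08 ± 0.982 TPM, and Atp6v0d2 and Atp6v1g2 were the lowest V-ATPase genes kept at 3.71 ± 0.300 and 2.84 ± 0.833 TPM.

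The alternative V-ATPase genes were used very unevenly. For subunit a, which forms the proton path beside the ring, Tcirg1 (the a3 gene, outside the naming rule but part of the isoform set) supplied 72.6% ± 0.458 of the summed TPM in WT, Atp6v0a1 21.3% ± 0.528, Atp6v0a2 6.09% ± 0.113 and Atp6v0a4 0.00853%. Atp6v0d1 made up 98.1% ± 0.108 of subunit d, while Atp6v0d2, a form known from osteoclasts and some macrophages, made up the rest. Atp6v0e supplied 99.96% of subunit e, Atp6v1c1 99.8% of subunit C and Atp6v1g1 99.3% of subunit G. Atp6v1b1 and Atp6v1e2 were listed at 0 in all 9 libraries, so that Atp6v1b2 and Atp6v1e1 were the only listed transcripts of subunits B and E.

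**Figure D1:**
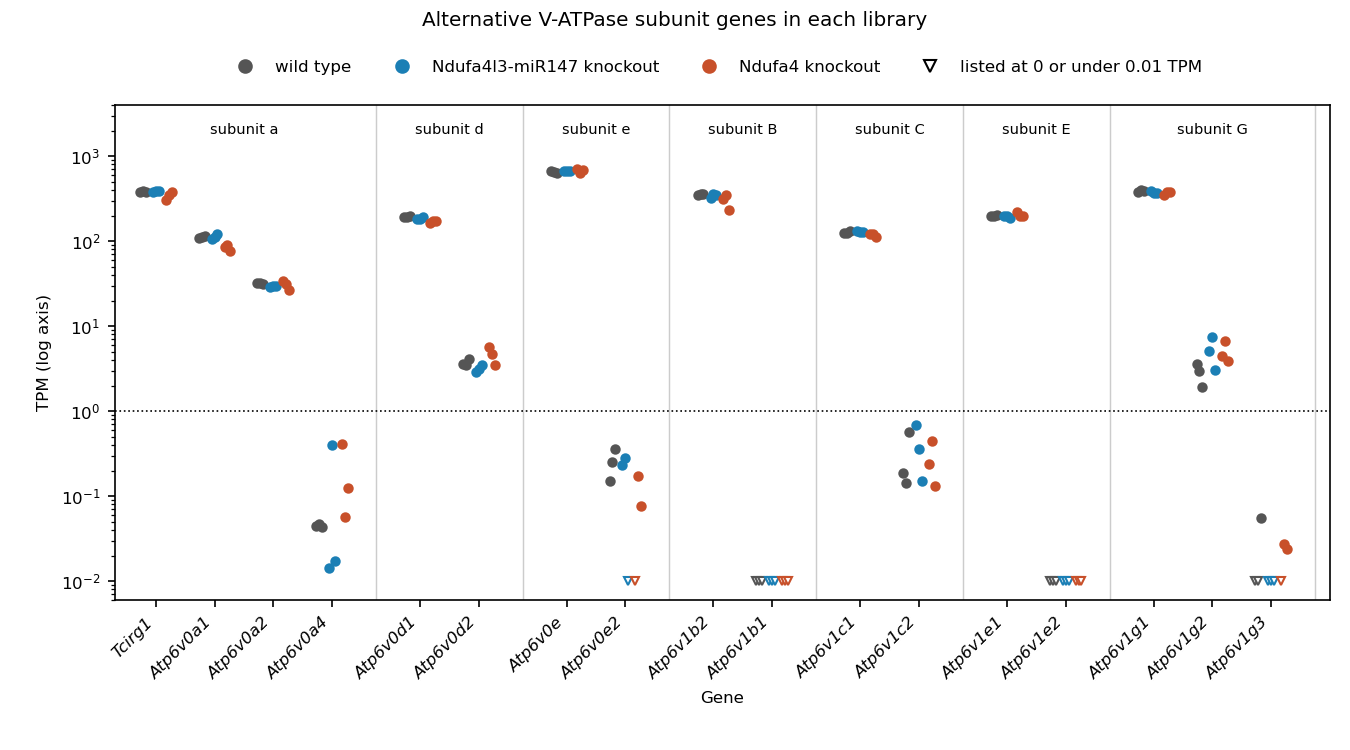
TPM on a log axis for the alternative genes of 7 V-ATPase subunits in each of the 9 libraries, coloured by genotype; open triangles mark values listed at 0 or under 0.01 TPM, and the dotted line is 1 TPM. In every set 1 gene lies far above the others except in subunit a, where Tcirg1, Atp6v0a1 and Atp6v0a2 were all kept.

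Tfeb itself had 34.5, 30.8 and 29.6 TPM in WT, 29.6, 30.4 and 32.6 TPM in the Ndufa4l3miR147KO and 30.0, 36.4 and 38.9 TPM in the Ndufa4KO. The 3 genotypes overlapped, and the Ndufa4KO difference was 0.14 ± 0.10 (SE) on the log2(TPM + 1) scale, with an adjusted p of 0.404 from limma. RefSeq promoter windows (GRCm38.p6, 250 bases before to 50 after each start) were found for 36 of the 45 genes. The exact 8-letter core of the CLEAR element, TCACGTGA, a palindrome and so the same on both strands, lay in 7 of the 36 windows (19.4%), against 1.12% of 27025 genes with a window and 2.33% of the 8272 such genes that passed the level filter. Other lysosomal genes held it in 12 of 103 windows (11.7%). The shorter E-box CACGTG, which every TCACGTGA contains, lay in 12 windows (33.3%), against 8.09% of all genes, 12.1% of those that passed the filter and 27.2% of the other lysosomal genes. The longer palindrome with a further G before and C after the core was found in 0 of the 36, against 0.37% of all genes, 0.895% of those that passed the filter and 4 of 103 other lysosomal genes (3.88%). A match is a string in a window, not a measured binding site.

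The 9 matches in those 7 genes are printed on the gene's own strand with 10 bases on each side, the core in capitals, since these are the promoters of the set that carry the Tfeb-family letters. Positions count from the annotated start, with -1 the base before it. Ctsa (protective protein, cathepsin A) has a pair at chr2:164833750-164833777 (plus strand, position -13) and chr2:164833767-164833794 (position 5), and Gla has a pair at chrX:134601216-134601243 (minus strand, position -228) and chrX:134601183-134601210 (position -195). The single matches lie at chr7:142387909-142387936 for Ctsd (minus strand, position -99), at chr8:3500463-3500490 for Mcoln1, the lysosomal calcium channel (plus strand, position -46), at chr8:105566051-105566078 for Atp6v0d1 (minus strand, position -4), at chr16:44139374-44139401 for Atp6v1a, the catalytic V1 subunit (minus strand, position -132), and at chr17:26676388-26676415 for Atp6v0e (plus strand, position 3).
Ctsa, first: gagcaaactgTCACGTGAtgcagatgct
Ctsa, second: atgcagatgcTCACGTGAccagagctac
Gla, first: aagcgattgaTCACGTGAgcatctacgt
Gla, second: gagatctcggTCACGTGAgcaactctcg
Ctsd: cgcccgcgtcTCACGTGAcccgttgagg
Mcoln1: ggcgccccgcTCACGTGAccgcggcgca
Atp6v0d1: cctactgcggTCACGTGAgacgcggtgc
Atp6v1a: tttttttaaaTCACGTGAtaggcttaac
Atp6v0e: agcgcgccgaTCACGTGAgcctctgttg

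Part of the lysosomal set lay lower in the Ndufa4KO libraries than in the WT libraries. In the Ndufa4KO 9 of the 45 genes fell and none rose against WT (adjusted p under 0.05, limma on log2(TPM + 1) with Benjamini-Hochberg adjustment over all 11133 genes), which is 20.0% of the set, beside 8.59% of all genes called in either direction, 5.76% lower and 2.83% higher. The 9 were the proteases Ctsd and Tpp1, the glycosidases Gusb, Neu1 and Gaa, progranulin (Grn), the membrane protein Laptm5 and the V0 genes Atp6v0a1 and Atp6v0d1, with falls of 12.1% to 24.8%. None of the 9 V1 genes and neither accessory gene passed. The median difference of the 45 was -0.16 beside -0.08 over all genes, and 37 of the 45 estimates lay below 0, beside 64.5% of all genes. At an unadjusted p under 0.05, limma gave 22 of the 45 lower, beside 18.1% of all genes.

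The count of 9 depends on the libraries and the scaling, and so does its relation to the share of all genes called. After TPM were rescaled by the median of ratios, 3 of the 45 passed (Atp6v0a1, Gusb and Neu1), which is 6.67% beside 8.39% of all genes, so the share of the set was no longer above that of all genes. In that fit the median of the 45 was -0.08 and that of the 9 V1 genes moved from -0.07 to 0.00. Quantile normalization instead called 11 of the 45, 10 lower and Ctsl higher (24.4%, beside 957 of the 11133 genes). The share of the set thus stayed above that of all genes under quantile normalization. The median of the 45 was then -0.16, beside 0.004 over all genes. Without Ndufa4KO replicate 3 the count was 17, 16 lower and Ctsl higher (37.8%, beside 14.2% of all genes). It was 13, all lower, without Ndufa4KO replicate 1 (28.9%, beside 9.98%) and 11, with Ctsl again higher, without replicate 2 (24.4%, beside 9.71%). Without WT replicate 1, 2 and 3 it was 2, 4 and 3 (4.44%, 8.89% and 6.67%, beside 2.39%, 2.39% and 2.60%). Without any 1 of the Ndufa4l3miR147KO libraries, which enter the shared estimate of the spread, it was 4 (8.89%, beside 5.31% to 5.97%).

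**Figure D2:**
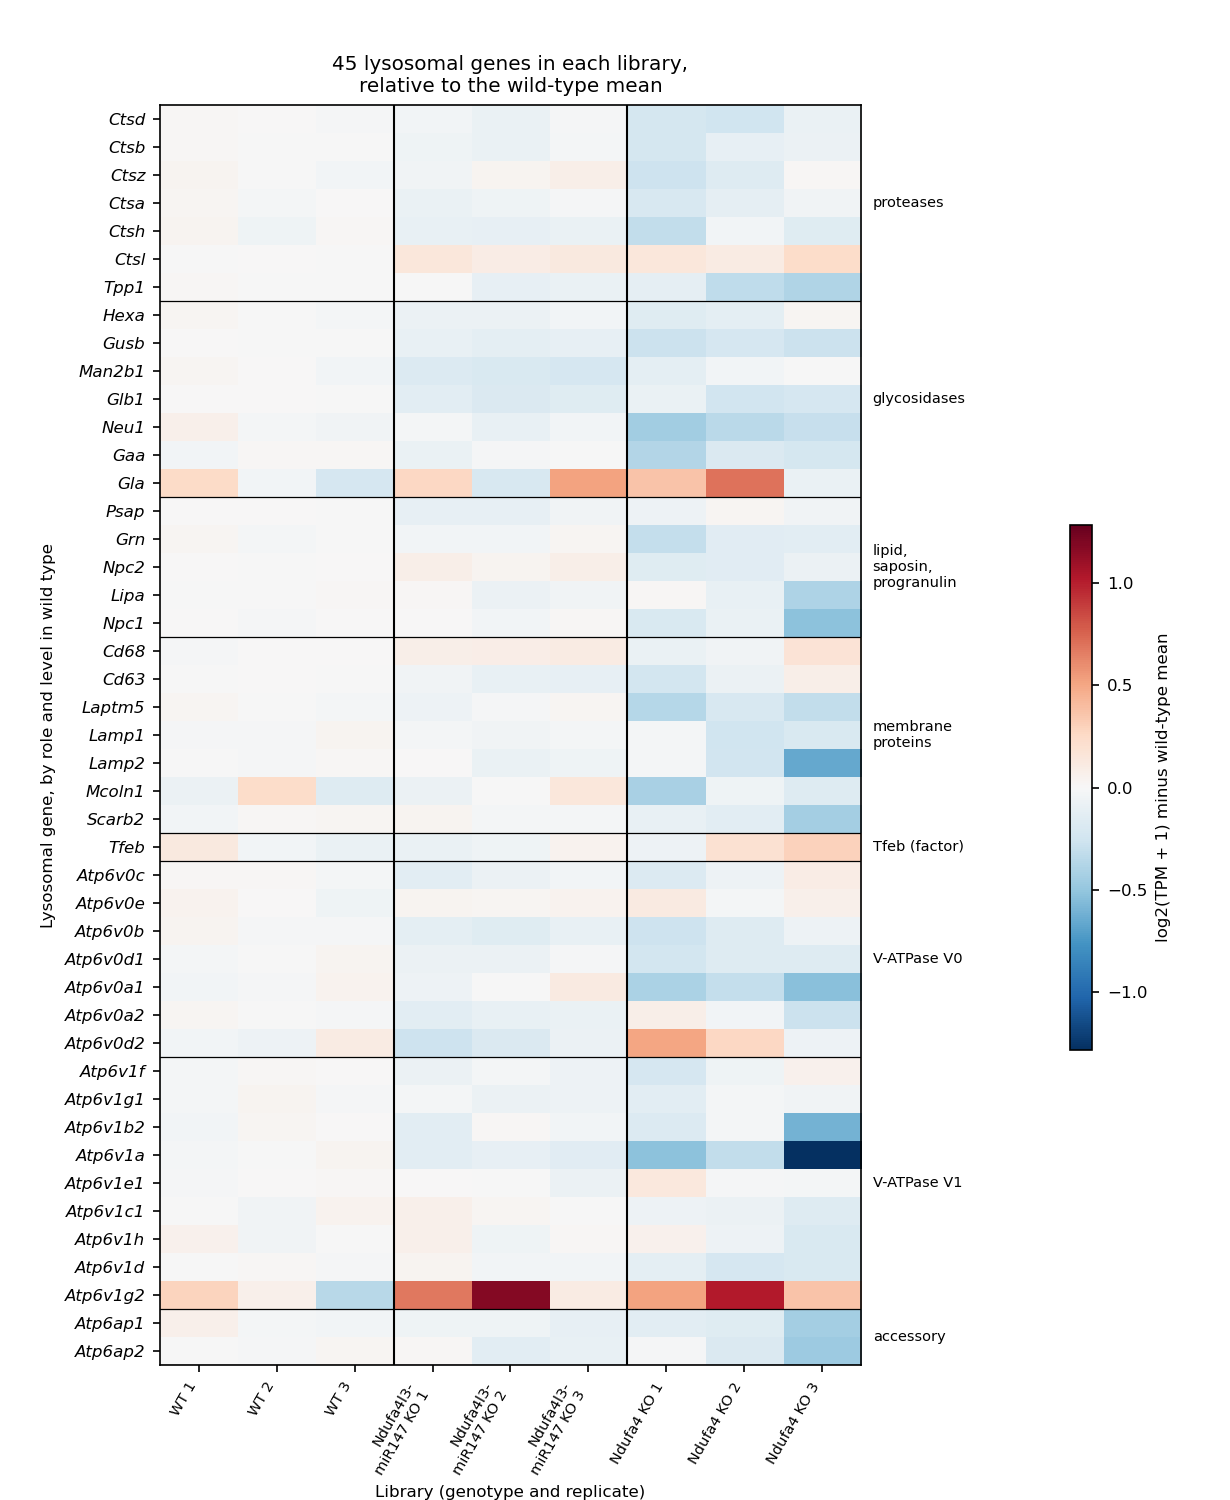
Each cell gives log2(TPM + 1) of 1 of the 45 genes in 1 library minus the mean of the 3 WT libraries, red above and blue below, with genes ordered by role and by WT level. Blue prevails in the 3 Ndufa4KO columns, where the library medians were -0.14, -0.10 and -0.16, and Atp6v1a and Lamp2 are lowest in replicate 3.

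The glycosidases held 3 of the 9. Gusb read 560, 555 and 557 TPM in WT, 522, 510 and 517 TPM in the Ndufa4l3miR147KO and 459, 480 and 461 TPM in the Ndufa4KO. No Ndufa4KO library reached a WT library. It fell by 0.26 ± 0.04 (SE) on the log2 scale (adjusted p = 0.00516, limma), a call kept under all 20 alternatives. Neu1, the lysosomal sialidase, read 67.5, 63.6 and 62.6 TPM in WT, 63.6, 60.5 and 63.2 TPM in the Ndufa4l3miR147KO and 47.1, 50.7 and 52.6 TPM in the Ndufa4KO. The Ndufa4KO values again lay below all others, a fall of 0.36 ± 0.06 (adjusted p = 0.00909, limma). Leaving out WT replicate 1 gave an adjusted p of 0.0514. Gaa, acid alpha-glucosidase, which degrades glycogen, read 57.3, 59.5 and 59.6 TPM in WT against 45.1, 51.6 and 50.3 TPM in the Ndufa4KO, without overlap. It fell by 0.26 ± 0.06 (adjusted p = 0.0363, limma), and 6 of the 9 fits with 1 library left out, those without a WT or a Ndufa4l3miR147KO library, missed the threshold, with adjusted p up to 0.128.

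The other glycosidases did not pass. Glb1, acid beta-galactosidase, had 91.7 to 92.7 TPM in WT and 77.7 to 87.2 TPM in the Ndufa4KO, without overlap (-0.18 ± 0.05, adjusted p = 0.0735, limma). Hexa (706 to 796 TPM against 773 to 797 in WT) and Man2b1, lysosomal alpha-mannosidase (247 to 268 against 264 to 275), overlapped WT. Gla varied between libraries of each genotype, with 6.76, 8.75 and 4.66 TPM in the Ndufa4KO against 6.14, 4.90 and 4.20 TPM in WT.

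Among the proteases, Ctsd read 5830, 5778 and 5726 TPM in WT, 5648, 5445 and 5712 TPM in the Ndufa4l3miR147KO and 4956, 4849 and 5453 TPM in the Ndufa4KO. The highest Ndufa4KO library lay under the lowest WT library. The fall was 0.19 ± 0.05 (adjusted p = 0.0484, limma), close to the threshold, and it stayed called only without Ndufa4KO replicate 3 (adjusted p = 0.00278) among the 9 fits that leave out 1 library. The 8 others gave adjusted p from 0.0721 to 0.161. Tpp1, tripeptidyl peptidase 1, read 118, 117 and 117 TPM in WT and 108, 93.2 and 89.4 TPM in the Ndufa4KO, without overlap, a fall of 0.27 ± 0.07 (adjusted p = 0.0449, limma). Among the same 9 fits the Tpp1 call held only without Ndufa4KO replicate 1 (adjusted p = 0.00785, limma). Its adjusted p reached 0.140 without WT replicate 1. Of all 20 alternatives, 7 kept the Tpp1 call.

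Ctsl, cathepsin L, was the cathepsin of the set that lay above WT. It read 387, 390 and 388 TPM in WT, 430, 416 and 422 TPM in the Ndufa4l3miR147KO and 428, 416 and 457 TPM in the Ndufa4KO. Both knockouts lay wholly above WT, which they share as control, but neither difference passed: 0.16 ± 0.04 in the Ndufa4KO (adjusted p = 0.0566) and 0.12 ± 0.04 in the Ndufa4l3miR147KO (adjusted p = 0.460), both by limma. Ctsb (3422 to 3799 TPM against 3969 to 4024 in WT) and Ctsa (821 to 922 against 933 to 964) lay below WT without overlap and without passing. Both passed without Ndufa4KO replicate 3 (adjusted p = 0.0302 and 0.0299, limma). Ctsh (488 to 593 TPM against 587 to 625) and Ctsz (1569 to 1918 against 1849 to 1944) overlapped WT.

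Of the genes for lipid handling, saposins and progranulin, Grn read 2662, 2583 and 2618 TPM in WT, 2565, 2552 and 2659 TPM in the Ndufa4l3miR147KO and 2120, 2375 and 2378 TPM in the Ndufa4KO. The Ndufa4KO lay below WT in all 3 libraries, a fall of 0.20 ± 0.05 (adjusted p = 0.0450, limma). Without a WT or a Ndufa4l3miR147KO library the adjusted p ran from 0.0770 to 0.157. Psap, the most abundant of this group, did not separate: 4707 to 5025 TPM in the Ndufa4KO against 4902 to 4937 TPM in WT. Npc1 and Npc2, the pair of proteins that export cholesterol from lysosomes, lay below WT in the Ndufa4KO without overlap (65.0 to 89.0 against 93.2 to 94.9 TPM, and 728 to 767 against 807 to 813 TPM), with adjusted p of 0.131 and 0.0688 by limma. Lipa, lysosomal acid lipase, had 566, 524 and 424 TPM against 558 to 564 TPM in WT, the low value being replicate 3.

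The membrane proteins gave 1 call. Laptm5, a lysosomal membrane protein of blood cells, read 1431, 1399 and 1377 TPM in WT, 1337, 1386 and 1427 TPM in the Ndufa4l3miR147KO and 1087, 1212 and 1126 TPM in the Ndufa4KO. The Ndufa4KO lay below every other library, a fall of 0.30 ± 0.05 (adjusted p = 0.00916, limma). Without WT replicate 1 the adjusted p was 0.0530. Lamp1 and Lamp2, the main glycoproteins of the lysosomal membrane, had 1108, 939 and 978 TPM and 624, 536 and 404 TPM in the Ndufa4KO against 1108 to 1154 and 630 to 643 TPM in WT. Their differences of -0.16 ± 0.06 and -0.31 ± 0.13 did not pass (adjusted p = 0.131 and 0.167, limma), and without replicate 3 that of Lamp2 was -0.14. Scarb2, the receptor that carries glucocerebrosidase to lysosomes, had 52.0 to 66.0 TPM against 68.5 to 71.8 in WT, and the Mcoln1, Cd63 and Cd68 values overlapped WT.

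Within the V-ATPase, 2 of the 18 genes fell (11.1%, beside 5.76% of all genes lower and 8.59% in either direction). Atp6v0a1 read 110, 111 and 116 TPM in WT, 107, 112 and 122 TPM in the Ndufa4l3miR147KO and 84.6, 90.6 and 77.2 TPM in the Ndufa4KO. The 3 Ndufa4KO libraries lay below the other 6, and the fall of 0.41 ± 0.07 was the largest among the 9 genes called (adjusted p = 0.0112, limma). Of the 20 alternatives, the one without WT replicate 3 missed the threshold (adjusted p = 0.0554). Atp6v0d1, the stalk that joins the ring to V1, read 190, 192 and 199 TPM in WT and 164, 172 and 172 TPM in the Ndufa4KO, a fall of 0.19 ± 0.04 without overlap (adjusted p = 0.0307, limma). Without a WT or a Ndufa4l3miR147KO library its adjusted p ran from 0.0539 to 0.129.

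The share of Atp6v0a1 among the subunit a genes was 19.9%, 19.3% and 15.9% in the Ndufa4KO against 21.0%, 21.0% and 21.9% in WT. The shares did not overlap, and the exact permutation test gave p = 0.1 (two-sided), the smallest that 3 against 3 libraries allow. Tcirg1 had 307, 348 and 380 TPM in the Ndufa4KO against 381 to 384 TPM in WT (adjusted p = 0.202, limma), and Atp6v0a2 had 26.3 to 33.9 TPM against 31.7 to 32.5 TPM. Atp6v0d2 had 5.68, 4.65 and 3.49 TPM in the Ndufa4KO, and overlapped the 3.50 to 4.05 TPM of WT.

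The largest estimate of the set belonged to Atp6v1a, and it did not pass. Atp6v1a read 203, 205 and 212 TPM in WT, 189, 192 and 187 TPM in the Ndufa4l3miR147KO and 143, 166 and 84.4 TPM in the Ndufa4KO. All 3 Ndufa4KO libraries lay below the rest, but they were spread widely, and the difference was -0.71 ± 0.20 (adjusted p = 0.0614, limma). Without replicate 3, the lowest, the estimate was -0.42 with an adjusted p of 0.00390. Atp6v1b2, which pairs with Atp6v1a in the catalytic head, had 315, 350 and 233 TPM against 348 to 363 TPM in WT, again with replicate 3 lowest.

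The other V1 genes lay closer to WT. Atp6v1d (41.0 to 43.9 TPM against 47.4 to 48.5) lay below WT without overlap (adjusted p = 0.0671, limma), as did Atp6v1c1 (113 to 122 against 123 to 131) and, in V0, Atp6v0b (497 to 571 against 589 to 609). Atp6v1g1 had 354 to 382 TPM against 383 to 400 TPM. Atp6v1e1, Atp6v1f, Atp6v1h, Atp6v0c and Atp6v0e overlapped WT. Atp6v1g2, a low G-subunit gene, gave the largest rise of the set, 0.63 ± 0.29, from 3.60, 2.95 and 1.95 TPM in WT to 4.40, 6.63 and 3.86 TPM in the Ndufa4KO, and did not pass (adjusted p = 0.199, limma). The accessory genes Atp6ap1 (515, 508 and 416 TPM) and Atp6ap2 (234, 208 and 171 TPM) were below WT in the 3 libraries, with adjusted p of 0.0883 and 0.196 by limma.

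In all, 24 of the 45 genes had all 3 Ndufa4KO libraries below all 3 WT libraries (53.3%, beside 21.7% of all genes), and 2, Ctsl and Atp6v1g2, had them all above (beside 9.40%). Some gaps were narrow, with 1107.7 against 1108.0 TPM for Lamp1 and 233.6 against 233.8 TPM for Atp6ap2. Ranges were compared on TPM only, not after rescaling. The summed TPM of the 45 was 34662 to 37168 in the Ndufa4KO, 37595 to 38633 in the Ndufa4l3miR147KO and 38874 to 39346 in WT, without overlap between genotypes. These sums are 3.91% ± 0.140, 4.15% ± 0.0593 and 4.27% ± 0.0267 of each table's total (SD, n = 3).

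**Figure D3:**
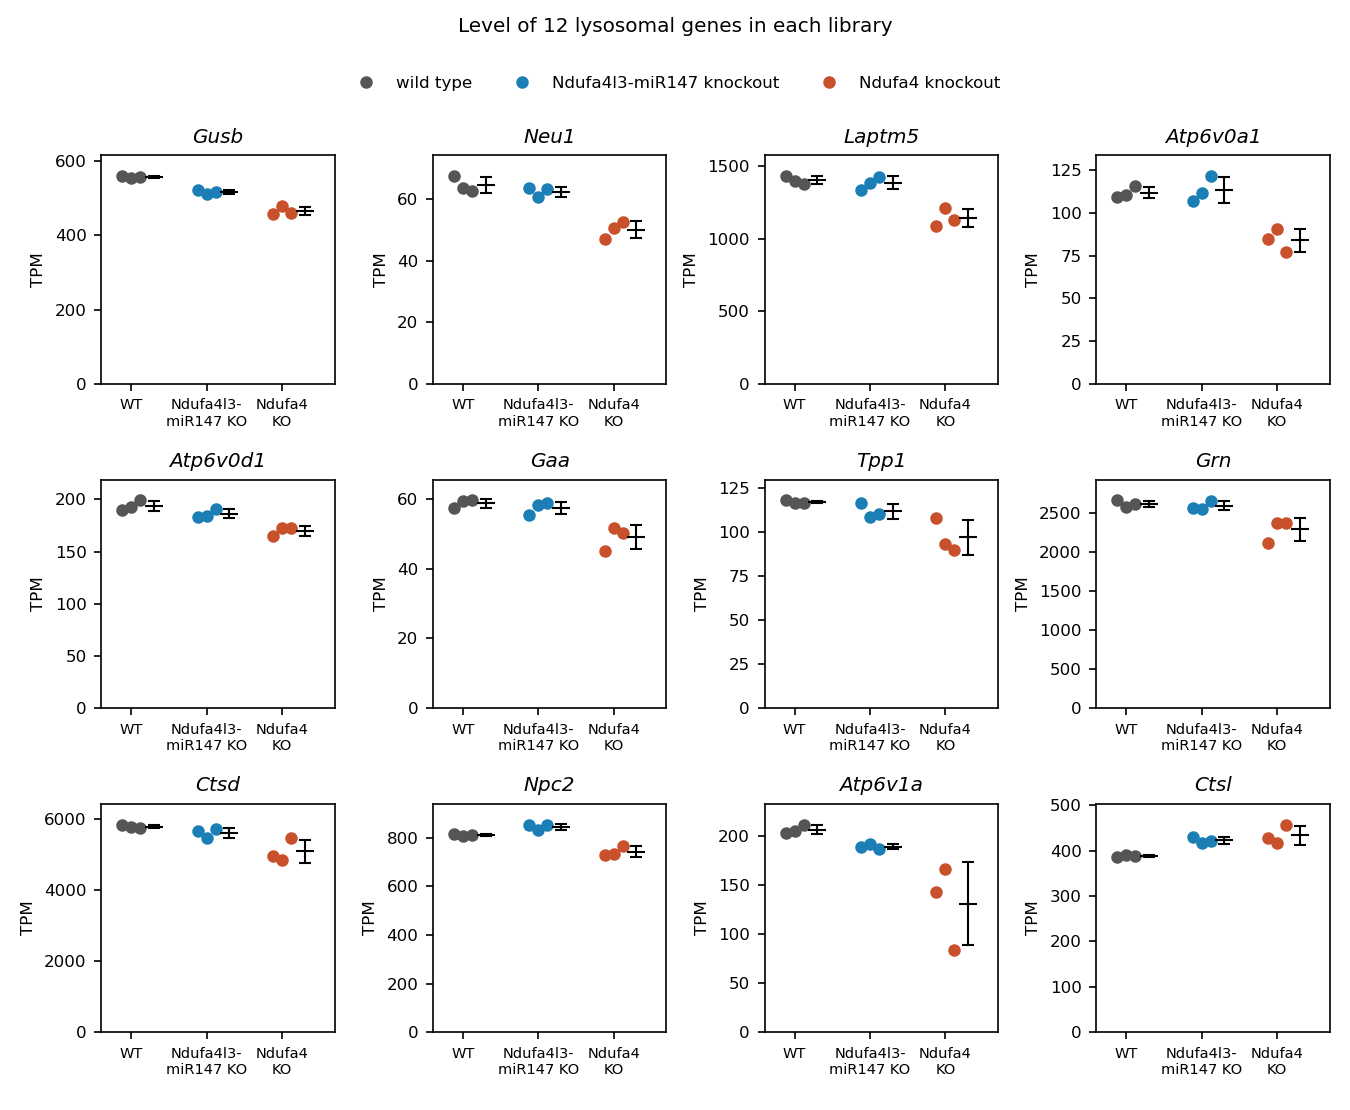
TPM of the 9 genes called in the Ndufa4KO and of Npc2, Atp6v1a and Ctsl in each library, with the mean and SD (n = 3) at the right of each group and every axis starting at 0. For the 9 called genes the highest Ndufa4KO library lies below the lowest WT library, for Gusb 480 against 555 TPM.

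The deviation of Ndufa4KO replicate 3 was visible within the set. Against the mean of replicates 1 and 2 it was lower by 0.86 (log2 scale) for Atp6v1a, by 0.62 for Gla, by 0.52 for Lamp2 and by 0.51 for Atp6v1b2, and higher by 0.24 for Cd68, 0.24 for Ctsz and 0.23 for Cd63. Leaving this library out moved several differences from WT. Lamp2 went from -0.31 to -0.14, Atp6v1b2 from -0.27 to -0.10, Npc1 from -0.27 to -0.14, Atp6ap2 from -0.22 to -0.10, Scarb2 from -0.22 to -0.11 and Lipa from -0.16 to -0.04, and none of these passed in either fit. Atp6ap1 went from -0.24 to -0.14 and Ctsz from -0.14 to -0.22, and both passed without it (adjusted p = 0.0424 and 0.0209, limma). Atp6v0b, Atp6v1a, Ctsa, Ctsb, Hexa and Npc2 also passed as lower without it, and Ctsl as higher, while Tpp1 was lost. The positive estimates of Atp6v0d2 and Gla went from 0.23 to 0.38 and from 0.32 to 0.53, and that of Tfeb from 0.14 to 0.07, again without passing. Across the 45 genes its Spearman correlation with annotated transcript length was -0.396, a description over genes that share these libraries. With the length trend removed in each library, 9 genes were called again, 8 lower and Ctsl higher, with Ctsd, Gaa and Neu1 lost and Atp6v0b and Atp6v1a gained. That is 20.0%, beside 10.4% of all genes in that fit, 580 higher and 531 lower.

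**Figure D4:**
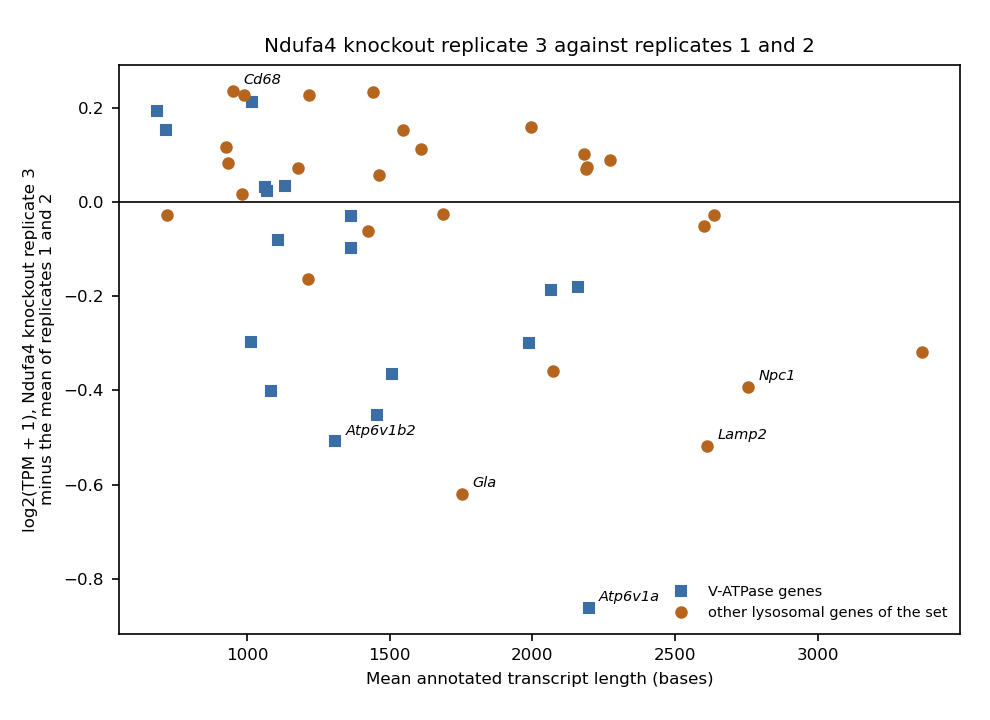
Difference in log2(TPM + 1) between Ndufa4KO replicate 3 and the mean of replicates 1 and 2 for each of the 45 genes, against the mean length of the annotated transcripts in bases, with squares for V-ATPase genes. Atp6v1a lies lowest at -0.86, and Cd68 at 0.24 is among the highest.

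The comparison of the Ndufa4l3miR147KO with WT uses the same WT libraries. In it 0 of the 45 genes passed against WT with limma, beside 0.431% of all genes (48), and at an unadjusted p under 0.05 limma gave 5 lower and 2 higher, beside 4.08% and 4.16% of all genes. The median difference was -0.05 beside 0.00 over all genes, and 34 of the 45 estimates lay below 0, beside 49.6% of all genes. With only the 6 libraries of this comparison in the fit 4 genes passed (8.89%, beside 2.75% of all genes). Man2b1, Glb1 and Gusb were lower and Ctsl was higher. Without Ndufa4KO replicate 3 Man2b1 passed alone (2.22%, beside 1.78% of all genes), with an adjusted p of 0.0355 by limma.

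Man2b1 was closest to the threshold, with 275, 270 and 264 TPM in WT and 239, 235 and 232 TPM in the Ndufa4l3miR147KO. The groups did not overlap, and the difference was -0.20 ± 0.04 (adjusted p = 0.164, limma). Glb1 (81.1 to 84.0 TPM against 91.7 to 92.7) and Gusb (510 to 522 against 555 to 560) were also below WT without overlap, by -0.16 ± 0.05 and -0.11 ± 0.04 (adjusted p = 0.415 and 0.408, limma). The largest rise was again that of the low gene Atp6v1g2, 0.66 ± 0.29, with 5.05, 7.53 and 3.07 TPM overlapping WT.

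By ranges, 17 genes lay below WT in all 3 Ndufa4l3miR147KO libraries (beside 12.0% of all genes), among them 4 of the 7 glycosidases, 4 of the 7 proteases and 4 of the 7 V0 genes. The 3 above WT (beside 11.9%) were Ctsl, Npc2 and Cd68. Cd68 read 2317, 2354 and 2348 TPM in WT and 2462, 2486 and 2520 TPM in the knockout (0.09 ± 0.06, adjusted p = 0.859, limma). Atp6v0a1 and Laptm5, which fell in the Ndufa4KO, differed from WT here by 0.02 and -0.02, with 95% intervals of -0.14 to 0.18 and -0.13 to 0.09.

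**Figure D5:**
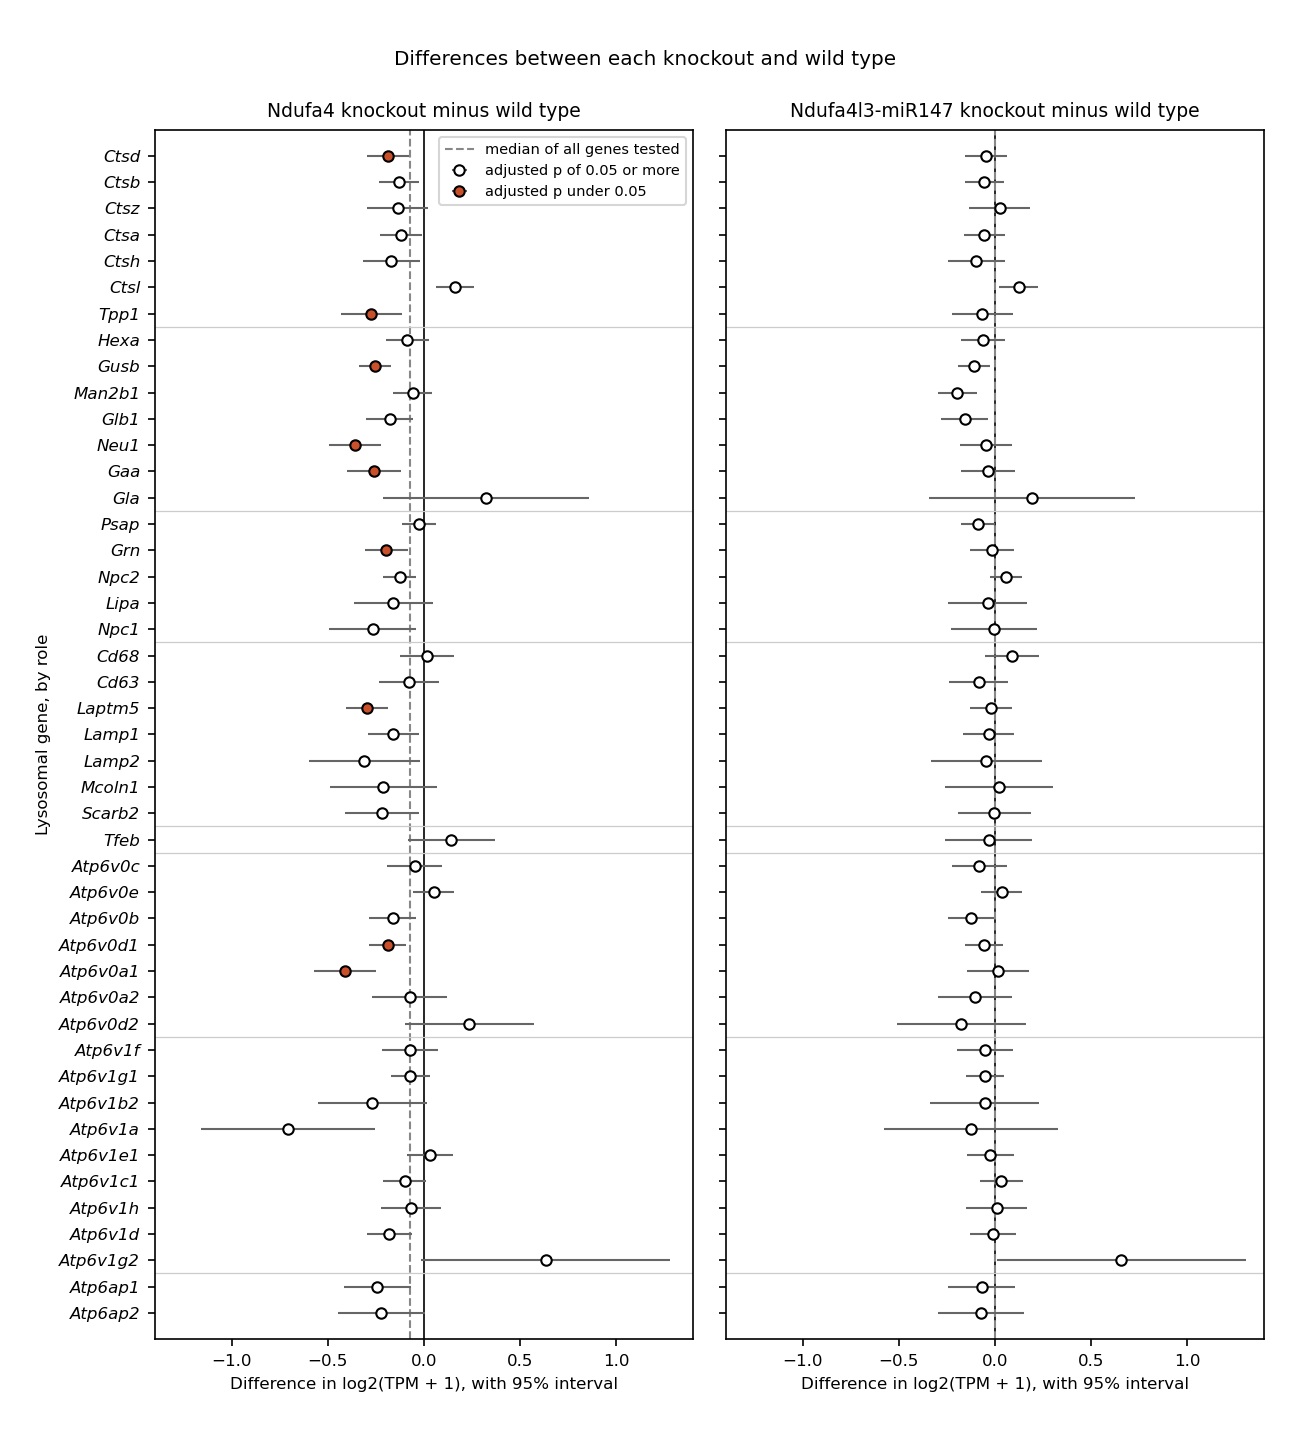
Difference in log2(TPM + 1) between each knockout and WT for the 45 genes, with 95% intervals from limma; filled points passed an adjusted p of 0.05, the dashed line is the median of all genes tested, and both panels share the WT libraries. The 9 filled points all lie below 0 in the Ndufa4KO panel, and the Ndufa4l3miR147KO panel has 0.

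The knockouts were also compared with each other, in the same fit, so that the WT libraries enter the estimate of the spread but not the difference. Of the 45 genes 4 were higher in the Ndufa4l3miR147KO than in the Ndufa4KO and none lower (8.89%, beside 3.24% of all genes in either direction, 2.20% higher and 1.04% lower, limma). They were Atp6v0a1 (0.43 ± 0.07, adjusted p = 0.0155), Laptm5 (0.28 ± 0.05, adjusted p = 0.0195), Neu1 (0.31 ± 0.06, adjusted p = 0.0264) and Npc2 (0.19 ± 0.04, adjusted p = 0.0326). Npc2 read 852, 830 and 853 TPM in the Ndufa4l3miR147KO and 728, 732 and 767 TPM in the Ndufa4KO, with WT between them at 807 to 813 TPM. The count was 11 without Ndufa4KO replicate 3, 10 higher and Atp6v0d2 lower (24.4%, beside 6.65% of all genes), and 6 without Ndufa4KO replicate 1 (13.3%, beside 445 of the 11133 genes). It was 0 with only these 6 libraries (beside 0.575%) and without Ndufa4l3miR147KO replicate 2 or 3 (beside 0.826% and 0.844%). It was 1 without Ndufa4l3miR147KO replicate 1 or WT replicate 2 (2.22%, beside 0.737% and 1.58%) and 2 without WT replicate 1 or 3 (4.44%, beside 1.66% and 1.80%). After median-of-ratios scaling Atp6v0a1 alone was called (2.22%, beside 2.64% of all genes). With the length trend removed Neu1 and Npc2 were lost and Grn was gained (6.67%, beside 3.92% of all genes). Npc2 then stood at 0.08 (adjusted p = 0.583, limma) and Neu1 at 0.20 (adjusted p = 0.236, limma).

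Atp6v0d2 had the lowest estimate in this comparison, -0.41 ± 0.15, with 2.93, 3.12 and 3.47 TPM in the Ndufa4l3miR147KO and 5.68, 4.65 and 3.49 TPM in the Ndufa4KO (adjusted p = 0.175, limma). Without Ndufa4KO replicate 3 it was -0.56 and passed (adjusted p = 0.0295). Atp6v1a had the highest, 0.58 ± 0.20 (adjusted p = 0.157, limma). Without that library it was 0.29 and passed (adjusted p = 0.0267), below Atp6v0a1 at 0.37 and Neu1 at 0.35. By ranges 15 genes were higher in the Ndufa4l3miR147KO in all 3 libraries (beside 18.3% of all genes) and 2, Atp6v0d2 and Man2b1, were lower (beside 6.98%). At an unadjusted p under 0.05 limma gave 16 higher and 2 lower, beside 14.6% and 5.72%. The median was 0.12 beside 0.07 over all genes. For the glycosidases the median was 0.02 and turned to -0.05 after median-of-ratios scaling, as did that of the 18 V-ATPase genes, from 0.06 to -0.01.

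Among 129 further lysosomal genes kept, 21 fell and 2 rose in the Ndufa4KO against WT (16.3% and 1.55%, beside 5.76% and 2.83% of all genes, limma). The falls ran through other proteases (5 of 15), membrane proteins and transporters (5 of 30) and MiT/TFE factors and nutrient sensing (5 of 21). Sorting to lysosomes held 4 of 22 and other glycosidases, sulfatases and phosphatases 2 of 25. None of 6 other lipid enzymes or of 10 V-ATPase genes with other symbols fell. Lists this short can hold no fall at the 5.76% of all genes, so these 2 are not set apart. Ctse, the endosomal aspartic protease cathepsin E, fell by 3.02 ± 0.12 (adjusted p = 1.07e-05, limma), from 64.4 to 65.6 TPM in WT to 5.49 to 8.22 TPM. Scpep1, a serine carboxypeptidase, fell by 0.34 ± 0.04 (adjusted p = 0.00269), and Flcn, folliculin, which controls where Tfeb resides, by 0.56 ± 0.08 (adjusted p = 0.00401). Gm2a, the GM2 activator, rose by 0.34 ± 0.05 (adjusted p = 0.00627), and Lamtor1, an anchor of nutrient sensing on lysosomes, by 0.32 ± 0.06 (adjusted p = 0.0112). After median-of-ratios scaling 13 fell and 5 rose (14.0% in all, beside 8.39% of all genes). The count of 23 was 33 without Ndufa4KO replicate 3 (25.6%, beside 14.2%). It was 8, 6 and 6 without WT replicate 1, 2 and 3 (6.20%, 4.65% and 4.65%, beside 2.39%, 2.39% and 2.60%), and 14 to 16 without 1 of the Ndufa4l3miR147KO libraries (10.9% to 12.4%, beside 5.31% to 5.97%).

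In the Ndufa4l3miR147KO 3 of the 129 passed against WT (2.33%, beside 0.431% of all genes). Ctse rose by 1.25 ± 0.12 to 152 to 163 TPM (adjusted p = 0.00267, limma), opposite to its fall in the Ndufa4KO, and Slc15a3, a lysosomal peptide and histidine transporter, rose by 0.24 ± 0.04 (adjusted p = 0.0330). Gpnmb, a glycoprotein of macrophage lysosomes, fell by 0.28 ± 0.04 (adjusted p = 0.0300), from 1693 to 1702 TPM to 1362 to 1437 TPM. Between the knockouts 6 of the 129 were higher in the Ndufa4l3miR147KO, led by Ctse, Plekhm1 and Lgmn, and 3 were lower, Gpnmb, Gm2a and Lamtor1 (4.65% and 2.33%, beside 2.20% and 1.04% of all genes). Without any 1 WT or Ndufa4l3miR147KO library the count against WT was 1 (0.775%, beside 0.117% to 0.234% of all genes). The count between the knockouts was 3 without a Ndufa4l3miR147KO library (2.33%, beside 0.737% to 0.844%). It was 6 without a WT library (4.65%, beside 1.58% to 1.80%) and 24 without Ndufa4KO replicate 3 (18.6%, beside 6.65%).

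Set beside the promoter matches, the calls fell on both kinds of window. Of the 7 genes with TCACGTGA in the window, Ctsd and Atp6v0d1 fell in the Ndufa4KO, and Atp6v1a, Atp6v0e, Ctsa, Gla and Mcoln1 did not pass. In that comparison 20.0% of the 45 genes were called, beside 8.59% of all genes, and 7 genes are too few to compare shares. The other 7 genes that fell either lacked the 8 letters in their window or had no window in the table. Among them, Gaa has a window with CACGTG but without the 8 letters.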

How the data were processed

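The authors deposited 1 table of TPM per gene for the 9 libraries. Per the submitters' processing notes kallisto, DESeq2, edgeR and the builds mm10 and GRCm39 were used; the notes give neither versions nor roles. TPM are already divided by transcript length and by library total, so a drop in some genes raises others, and no count test applies. The filter kept genes reaching 1 TPM in 3 or more of the 9 libraries. limma 3.58.1 (R 4.3.3) was fitted to log2(TPM + 1), with 1 mean per genotype over all 9 libraries and an intensity trend. Tests were two-sided with Benjamini-Hochberg adjustment over all 11133 genes, and adjusted p under 0.05 was called. The fit was also tested on simulated data with independent noise in each library and no trend with transcript length. That simulation cannot show how calls behave under such a trend. Fold changes on this scale understate those of low genes. The members and the lists were chosen with earlier results of these data known.

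Named genes were those called in any comparison, the 2 most abundant of each role, the V-ATPase isoforms and the largest rise and fall of each comparison; the remaining members were named after their values were seen, to account for each. Transcript lengths came from GENCODE (GRCm38), promoters from RefSeq (GRCm38.p6). Alternatives changed the pseudocount, filter, scaling, spread model, weights, length trend, replicate block and libraries.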

Additional observations from a re-analysis of the deposited data

How the results depend on the processing

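The median difference of the 45 genes and the estimates of the 13 calls on them kept their sign under all 20 alternatives, but the counts of calls moved. In the order Ndufa4l3miR147KO against WT, Ndufa4KO against WT and Ndufa4l3miR147KO against Ndufa4KO, where the 9-library fit called 0, 9 and 4 of the 45 genes, leaving out 1 library gave 0 to 1, 2 to 17 and 0 to 11. A fit of only the 6 libraries compared called 4, 2 and 0, and limma's array weights 5, 27 and 18. A fit without the intensity trend called 0, 4 and 2, median-of-ratios scaling 0, 3 and 1, and quantile normalization 0, 11 and 4. Of all genes, 48, 956 and 361 were called, and leaving out 1 library gave 13 to 198, 266 to 1586 and 82 to 740. The 6-library fits called 306, 238 and 64 of all genes, and array weights 538, 3045 and 1726. The fit without the trend called 30, 795 and 299 of all genes. In its last 2 comparisons 8.89% and 4.44% of the 45 genes stood beside 7.14% and 2.69% of all genes. Median-of-ratios scaling called 47, 934 and 294 of all genes, and quantile normalization 57, 957 and 380. Of the 129 other lysosomal genes 3, 23 and 9 were called, with 1 to 4, 6 to 33 and 3 to 24 when 1 library was left out, 6, 5 and 3 in the 6-library fits and 9, 52 and 38 with array weights. In the first comparison it was 1 without the trend, with median-of-ratios scaling and with the length trend removed. With the replicate number as a block, 0, 6 and 0 of the 45, 24, 661 and 162 of all genes and 1, 15 and 5 of the 129 were called. The deviations of same-numbered libraries from their genotype means correlated by -0.138 to 0.179. Differently numbered libraries were not compared, so whether the numbers pair the libraries was not tested. The median of the 45 genes in the Ndufa4KO against WT was -0.0847 after median-of-ratios scaling, -0.114 with array weights, -0.0823 with the length trend removed and -0.159 to -0.120 with 1 library left out. Between the knockouts it was 0.0507, 0.0678, 0.0682 and 0.0906 to 0.140. Scaling also moved the split of calls over all genes in the Ndufa4KO, from 315 higher and 641 lower to 492 and 442 (median of ratios), 499 and 458 (quantiles) and 580 and 531 (length trend removed). Between the knockouts it moved from 245 higher and 116 lower to 146 and 148, 193 and 187, and 204 and 214. The causes were not tested. Depth is unknown from TPM, and 3 libraries a genotype limit the precision.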
